A study of Mus musculus with 6 samples.

Results

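The matrix metalloproteinases (MMPs), the ADAM and ADAMTS metalloproteases, the ADAMTS-like proteins and the tissue inhibitors of metalloproteinases (TIMPs) were described in mouse aorta. Genes were taken by name, as every symbol that begins with Mmp, Adam, Adamts or Timp followed by its number or letter. That gave 73 of the 29752 genes measured: 19 MMPs, 26 ADAMs, 19 ADAMTS genes, 5 ADAMTS-like genes and 4 TIMPs. The naming rule itself reads symbols and no measured value. RNA had been sequenced from the aortas of C57BL/6 mice aged 15 weeks, which had been on the normal diet since 8 weeks of age, 7 weeks in all. There were 3 libraries of wild-type mice and 3 of mice carrying the PALMD+/- genotype, called heterozygotes here, and no further allele or treatment is given for either group. The labels do not state which part of Palmd was altered, nor whether 1 animal stands behind each library. The p-values therefore measure the spread between these libraries, which may be technical in part.

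The altered gene, Palmd, encodes palmdelphin. Its level in replicates 1 to 3 was 5.49, 7.88 and 10.1 FPKM for wild type and 5.31, 7.19 and 6.21 FPKM for heterozygotes. Values below are given in the same order of replicates. FPKM divide a gene's reads by its exon length and by the library's total, so that levels can be set side by side between genes. The groups overlapped, with means of 7.82 ± 2.30 and 6.24 ± 0.942 FPKM (SD, n = 3). A read count over the whole gene cannot check the genotype labels when the altered stretch is unknown.

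MMPs, ADAMs and ADAMTS proteases are zinc enzymes made with an inhibitory propeptide, which is removed before they act. MMPs cut collagens, elastin and other matrix proteins, ADAMs mostly release the outer parts of membrane proteins, and ADAMTS proteases process procollagens and cleave proteoglycans. TIMPs fill the active site and block it. In the aortic wall the enzymes and the inhibitors come from smooth muscle cells, adventitial fibroblasts, endothelium and leukocytes, and they are studied for their part in elastin loss, aneurysm and plaque rupture.

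What separates an active protease from its non-catalytic relatives can be read from the gene. A zinc-binding stretch of 3 histidines and a catalytic glutamate lies in the protease domain, and its codons were searched for in every coding transcript of the 73 genes in GENCODE release M21 (GRCm38). All 19 MMPs and all 19 ADAMTS genes carried it, as did 14 of the 26 ADAMs, and none of the 5 ADAMTS-like genes or the 4 TIMPs did. The stretches below, of 33 coding bases each, belong to genes whose levels the results turn on, and they show how alike and how unlike the families are at this site. Capitals mark the codons of the 3 histidines, of the glutamate beside the first of them, and of the eighth place, which is a glycine in most families.
Mmp9: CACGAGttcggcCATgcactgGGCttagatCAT
Mmp2: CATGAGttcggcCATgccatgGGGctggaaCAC
Mmp14: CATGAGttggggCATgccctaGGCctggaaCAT
Mmp3: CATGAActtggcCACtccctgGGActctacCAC
Adam10: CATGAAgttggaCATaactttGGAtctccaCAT
Adam8: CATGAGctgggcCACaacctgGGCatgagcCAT
Adamts5: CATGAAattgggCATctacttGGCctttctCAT
Adamts12: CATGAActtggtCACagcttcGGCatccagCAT
Adamts6: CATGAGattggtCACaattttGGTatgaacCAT
Adamts1: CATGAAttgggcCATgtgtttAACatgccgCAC
Adamts8: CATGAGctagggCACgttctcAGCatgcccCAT

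Their places in GRCm38 are as follows. The Mmp9 stretch lies in exon 8 of its gene (chr2:164951133-164951165, plus strand) and that of Mmp2 also in exon 8 (chr8:92839279-92839311, plus strand), whereas those of Mmp14 (chr14:54437627-54437659, plus strand) and Mmp3 (chr9:7449775-7449807, plus strand) lie in exon 5. Exon 5 held the stretch in 15 of the 19 MMPs, and in each MMP it lay within 1 exon. In all 19 ADAMTS genes it was split over 2 exons. That of Adamts5 spans exons 2 and 3 (chr16:85878015-85887826, minus strand, intron included) and that of Adamts1, the neighbour on the same strand, spans exons 3 and 4 (chr16:85799191-85799545). The others shown are Adamts12 (chr15:11241529-11255564, exons 7 and 8), Adamts6 (chr13:104352847-104366809, exons 9 and 10) and Adamts8 (chr9:30952721-30953378, exons 3 and 4), all on the plus strand. Among ADAMs, 13 of 14 had it within 1 exon, such as Adam8 (chr7:139987893-139987925, exon 11, minus strand), and Adam10 had it split over exons 9 and 10 (chr9:70754296-70761585, plus strand). The eighth place encoded glycine in all MMPs and in the 14 ADAMs. In ADAMTS genes it encoded glycine in 13, asparagine in 5 (Adamts1, Adamts4, Adamts9, Adamts15 and Adamts20) and serine in Adamts8. The 12 ADAMs without the stretch were Adam2, Adam3, Adam4, Adam5, Adam6b, Adam7, Adam11, Adam18, Adam22, Adam23, Adam29 and Adam32.

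The libraries were of like depth, 17283951 to 18372131 reads behind the values, but heterozygote replicate 2 stood apart. Its mean correlation with the other libraries was 0.930, against 0.960 to 0.971 for the rest. Summed markers of smooth muscle were at 4646 FPKM in it and at 6972 to 10062 FPKM in the others, and those of endothelium at 220.3 FPKM against 707 to 792 FPKM. Adipocyte markers were at 4298 FPKM in it against 1273 to 3201 FPKM, and Schwann cell markers at 59.3 FPKM against 7.33 to 14.4 FPKM. The defining markers of smooth muscle, endothelium and fibroblasts were present in every library. Many results, though not all, are given with and without heterozygote replicate 2, and a later plot shows both fold changes of every tested member. The part that these cell types had in the results was not tested. In bulk tissue, fewer cells of a type and less RNA per cell cannot be told apart.

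Of the 73 genes, 41 had at least 1 FPKM in at least 3 libraries and were tested: 11 MMPs, 11 ADAMs, 10 ADAMTS genes and all ADAMTS-like genes and TIMPs. None of the 41 entered only through the libraries of 1 genotype. Of the 32 that were not tested, 29 were below 1 FPKM in every library, and Adam7 was listed at 0 throughout. With limma on log2(FPKM + 1), adjusted over all 12620 genes tested, 0 of the 41 differed between genotypes at an adjusted p under 0.05, where the share of all genes was 0%. The smallest adjusted p was 0.459, for Mmp9 (limma, all 6 libraries). At an unadjusted p under 0.05 there were 8 of 41, where the share of all genes was 6.50%. Of these, 7 were higher in heterozygotes (4.06% of all genes) and 1 was lower (2.44%). With limma voom on reads recovered from the values, 0 members passed and 8 were under 0.05 before adjustment. The share of all genes was not counted for voom, so that count is no result about the members. With array quality weights, which down-weight heterozygote replicate 2, 5 members passed (Mmp9, Mmp14, Mmp2, Adamts5 and Adam33), where 1.84% of all genes did. With the adipocyte markers as a covariate 0 passed and 18 were under 0.05 before adjustment, against 17.0% of all genes.

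Genotypes did not overlap for 9 of the 41 members, against 12.9% of all genes tested. Higher in every heterozygote library were Mmp9, Mmp14, Mmp2, Adamts5, Adamts6, Adamts12 and Adamtsl1 (7 members, against 7.80% of all genes), and lower were Timp3 and Adam8 (2 members, against 5.12%). For each of the 9 the exact two-sided permutation p was 0.1, the smallest that 3 libraries against 3 can give. Groups that do not overlap always give that value, so it only restates the separation. The log2 fold change, heterozygote minus wild type, was above 0 in 20 members and below 0 in 21, with a median of -0.02 against 0.01 over all genes. As the plot of fold changes shows, most intervals crossed 0 and were wide.

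**Figure D1:**
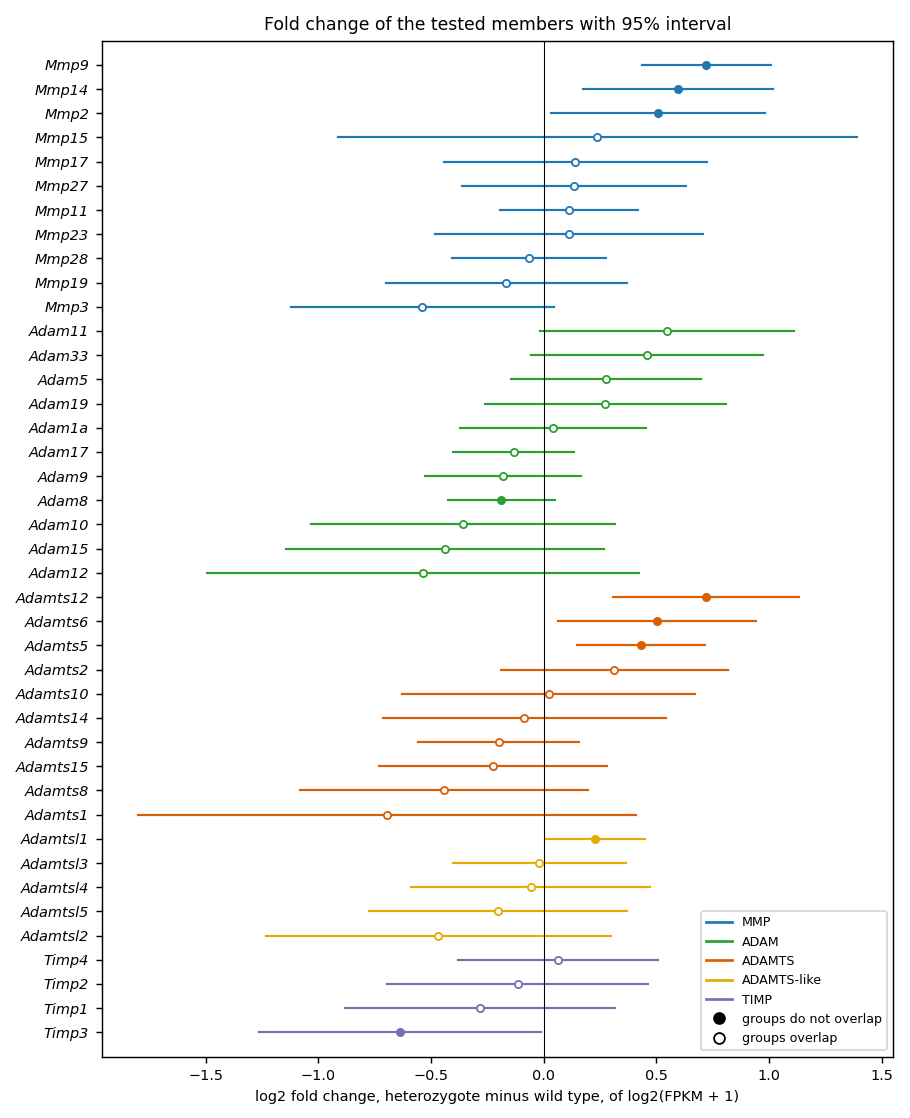
Log2 fold change (heterozygote minus wild type, on log2(FPKM + 1)) of the 41 tested members, with 95% intervals from limma, coloured by family and ordered within it. Filled points mark the 9 members whose genotypes did not overlap. No member had an adjusted p under 0.05.

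**Figure D2:**
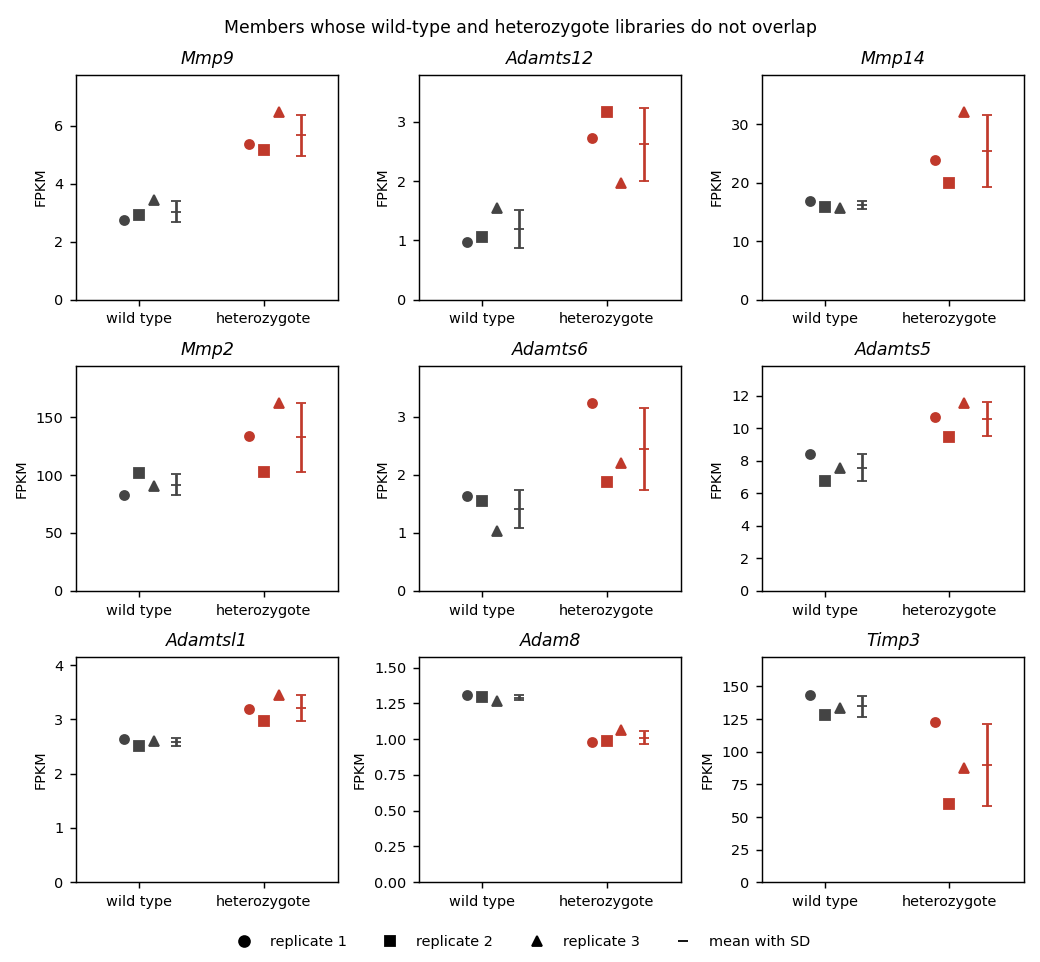
FPKM of the 9 members whose wild-type and heterozygote libraries did not overlap, one point per library with the mean and SD of 3 beside it, on axes that start at 0. Heterozygote replicate 2 (square) is the lowest heterozygote library for Mmp9, Mmp14, Mmp2, Adamts6, Adamts5, Adamtsl1 and Timp3.

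Without heterozygote replicate 2, 14 members had an unadjusted p under 0.05 (14.0% of all genes) and 20 did not overlap (33.1% of all genes), and again 0 passed. That library was the lowest of the 6 for 19 of the 41 members (34.2% of all genes) and the highest for 6 (26.4%). It had the lowest value in 4 of 5 ADAMTS-like genes, 3 of 4 TIMPs, 5 of 10 ADAMTS genes, 4 of 11 ADAMs and 3 of 11 MMPs. The colour map of all tested members shows it as the column with most of the low values, Adamts1 lowest among them, beside high values of Mmp15 and Adam19.

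**Figure D3:**
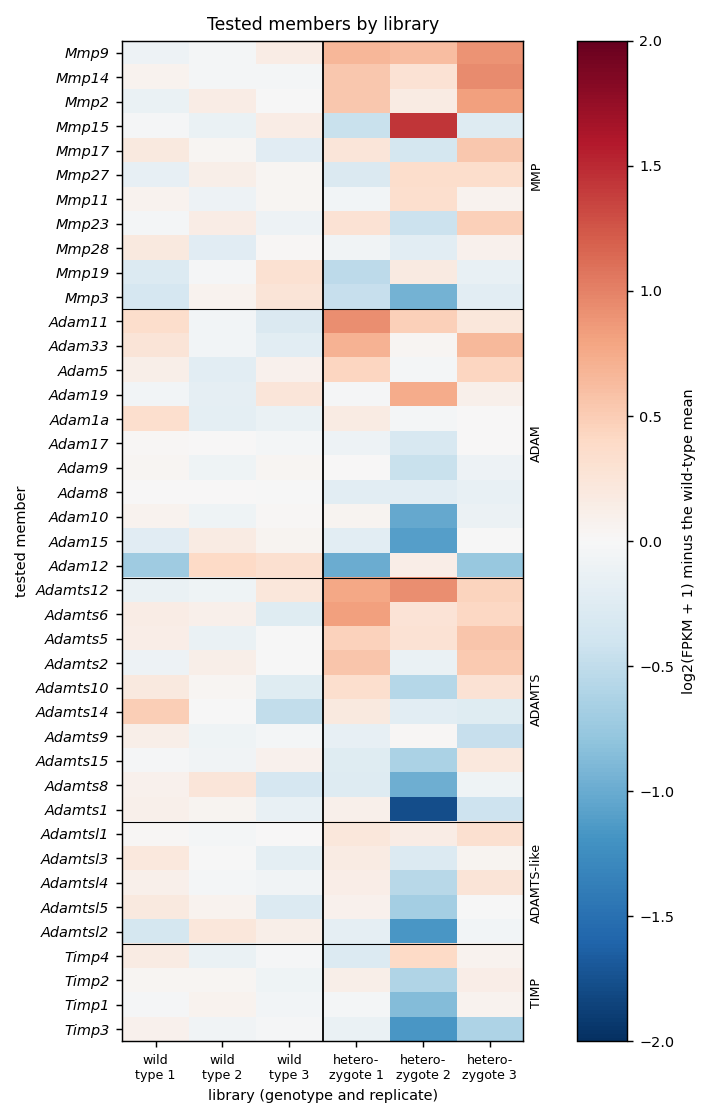
Log2(FPKM + 1) of the 41 tested members in each library minus the mean of the 3 wild-type libraries, by family. Blue is lower and red higher than wild type. Heterozygote replicate 2 is the lowest of the 6 libraries for 19 members, and Mmp9, Mmp14 and Mmp2 are red in all 3 heterozygote libraries.

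All 4 inhibitors were expressed. Timp2, which both blocks MMPs and takes part in the activation of the Mmp2 precursor by Mmp14, was the most abundant of all 73 genes. It was at 345, 343 and 315 FPKM in the wild-type libraries and at 362, 219.6 and 368 FPKM in the heterozygotes. The groups overlapped, heterozygote replicate 2 was the low one, and the log2 fold change of -0.12 (SE 0.24) was 0.13 without that library. Timp1, a soluble inhibitor of most MMPs, was at 28.7, 30.8 and 28.1 FPKM in the wild-type libraries and at 28.2, 15.6 and 30.6 FPKM in the heterozygotes. Again 5 libraries lay close together and heterozygote replicate 2 lay lower (log2 fold change -0.28, SE 0.25, and 0.01 without it).

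Timp3, the inhibitor that binds to matrix and also blocks Adam17 and the aggrecanases, was the inhibitor with lower values in every heterozygote library. It was at 144, 128 and 133 FPKM in the wild-type libraries and at 123, 59.8 and 87.2 FPKM in the heterozygotes. The groups did not overlap, but wild-type replicate 2 and heterozygote replicate 1 were close to each other. The means were 135 ± 8.05 and 89.9 ± 31.5 FPKM, a log2 fold change of -0.64 (SE 0.26, adjusted p = 0.765 by limma). It was -0.38 without heterozygote replicate 2. Timp3 (ENSMUSG00000020044, chromosome 10, 86300372 to 86349506) lies within the neuronal gene Syn3 on the other strand and shares 21.3% of its exon bases with it, while Syn3 itself was at 0.147 to 0.210 FPKM. The kit is not described as keeping strand.

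Timp4, an inhibitor known from heart and fat, was at 8.75, 6.87 and 7.50 FPKM in the wild-type libraries and at 6.18, 10.4 and 8.08 FPKM in the heterozygotes. Here heterozygote replicate 2, which also had the highest adipocyte markers, was the highest library, and the log2 fold change of 0.06 (SE 0.18) was -0.10 without it. Timp1 and Timp4 lie within Syn1 and Syn2, also on opposite strands. Syn2 was at 16.1 FPKM in heterozygote replicate 2 against 0.896 to 2.08 FPKM elsewhere, and Syn1 at 10.0 FPKM against 0.365 to 0.825 FPKM. Timp4 shares 1.5% of its exon bases with Syn2 and Timp1 shares none with Syn1.

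Among the MMPs, the gelatinases and the membrane-anchored activator Mmp14 had higher values in every heterozygote library. Mmp9, or gelatinase B (ENSMUSG00000017737, chromosome 2, 164940780 to 164955850), was at 2.75, 2.92 and 3.45 FPKM in the wild-type libraries and at 5.37, 5.17 and 6.48 FPKM in the heterozygotes. The highest wild-type library was well below the lowest heterozygote library, heterozygote replicate 2 included. The means were 3.04 ± 0.365 and 5.67 ± 0.709 FPKM, a log2 fold change of 0.72 (SE 0.12, 95% interval 0.43 to 1.01, adjusted p = 0.459 by limma). Its values rest on 178 to 419 reads per library. Neutrophils store gelatinase B. The summed level of 9 neutrophil markers was 1.37 to 12.5 FPKM in the wild-type libraries and 1.06 to 2.65 FPKM in the heterozygotes. These sums overlapped, since wild-type replicate 1, at 1.37 FPKM, lay within the heterozygote range. Of the 9 markers, 1 reached the level for testing. Macrophage markers summed to 311 to 398 FPKM and 336 to 459 FPKM, and 1 of the 7, the receptor Csf1r, was higher in every heterozygote library (15.6 to 18.9 against 20.8 to 24.5 FPKM). T cell markers, of which none reached the level for testing, summed to 0.704 to 1.23 and 1.47 to 3.14 FPKM. The part of leukocytes in the Mmp9 values was not tested.

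Mmp14, which cuts collagen at the cell surface and activates the Mmp2 precursor, was at 16.9, 15.8 and 15.8 FPKM in the wild-type libraries and at 24.0, 20.0 and 32.1 FPKM in the heterozygotes. The wild-type libraries lay close together, and heterozygote replicate 3 was the highest. The log2 fold change was 0.60 (SE 0.18, adjusted p = 0.618 by limma). Mmp2, or gelatinase A (ENSMUSG00000031740, chromosome 8, 92827291 to 92853420), was the most abundant MMP at 83.1, 101 and 90.8 FPKM in the wild-type libraries and 134, 102 and 162 FPKM in the heterozygotes. The groups only just failed to overlap, since heterozygote replicate 2 was level with wild-type replicate 2. The log2 fold change was 0.51 (SE 0.20, adjusted p = 0.750 by limma) and 0.68 without heterozygote replicate 2.

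The same order of heterozygote libraries, replicate 3 highest and replicate 2 lowest, was seen in the fibroblast markers. They summed to 1468, 1777 and 1714 FPKM in the wild-type libraries and to 2240, 1737 and 2771 FPKM in the heterozygotes. The groups overlapped for this sum. Of its 6 markers 1 did not overlap, the collagen Col1a1, while the fibroblast receptor Pdgfra was at 14.2 to 16.4 FPKM in the wild-type libraries and 15.4 to 17.0 FPKM in the heterozygotes. Their part in the Mmp2 and Mmp14 values was not tested.

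Mmp23, a membrane-anchored MMP that is released by cleavage, was at 64.9, 74.1 and 62.0 FPKM in the wild-type libraries and at 81.8, 49.4 and 93.2 FPKM in the heterozygotes. Heterozygote replicate 2 was below all wild-type libraries and the other heterozygotes above them, so that the log2 fold change was 0.11 (SE 0.25) with it and 0.38 without it. Mmp3, or stromelysin-1, a broad matrix protease that also activates other MMPs, had a lower mean in heterozygotes. It was at 52.9, 70.7 and 80.8 FPKM in the wild-type libraries and at 48.4, 34.3 and 58.1 FPKM in the heterozygotes. Wild-type replicate 1 lay within the heterozygote range, and the log2 fold change was -0.54 (SE 0.24, adjusted p = 0.774 by limma). It was -0.33 without heterozygote replicate 2, the lowest library.

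The other 6 tested MMPs overlapped between genotypes. The glycolipid-anchored Mmp17 was at 18.0 ± 2.78 and 20.4 ± 6.27 FPKM, epilysin Mmp28 at 10.8 ± 1.75 and 10.3 ± 1.11 FPKM, Mmp19 at 7.46 ± 1.74 and 6.58 ± 1.82 FPKM and stromelysin-3 Mmp11 at 4.16 ± 0.329 and 4.61 ± 0.789 FPKM. Mmp27 was near 1 FPKM in both. The membrane-anchored Mmp15 was at 3.04, 2.76 and 3.58 FPKM in the wild-type libraries and at 2.01, 10.0 and 2.45 FPKM in the heterozygotes. Its sign depended on 1 library, with a log2 fold change of 0.24 (SE 0.48) that was -0.35 without heterozygote replicate 2. Mmp19 shares 28.3% of its exon bases with genes on the other strand, and Mmp28, Adamts8, Adamts9 and Adam19 share 10.1% to 12.0%.

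The measured interstitial collagenases and other leukocyte or epithelial MMPs were hardly present. Mmp1a and Mmp1b, also collagenases, were not among the genes measured, and neither were Mmp10 and Mmp20. The collagenases Mmp13 and Mmp8, matrilysin Mmp7, macrophage elastase Mmp12, Mmp21 and Mmp25 did not exceed 0.357 FPKM in any library, and Mmp16 was at 0.648 to 0.802 FPKM. Mmp24 was at or below 0.0237 FPKM in 5 libraries and at 0.568 FPKM in heterozygote replicate 2. Mmp12 was counted at 21, 18 and 16 reads in wild type and 14, 6 and 5 reads in heterozygotes, which did not overlap, and its FPKM were below the level required for the test. Among the 73 genes, Mmp13, Mmp12, Mmp3, Mmp8, Mmp27 and Mmp7 lie in this order on the plus strand of chromosome 9 (7272514 to 7699585). Other genes lie in the same stretch, such as Mmp1b on the other strand, which shares 2.2% of the exon bases of Mmp12. Of the 6 genes, the 5 besides Mmp3 reached at most 1.41 FPKM after rounding.

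Of the ADAMs, the broadly expressed sheddases were the most abundant, with their lowest values in heterozygote replicate 2. Adam15 was at 36.0, 47.4 and 43.7 FPKM in the wild-type libraries and at 36.1, 19.2 and 42.0 FPKM in the heterozygotes. Adam10, which releases Notch receptors and cadherins, was at 34.0, 30.5 and 33.1 FPKM in the wild-type libraries and at 33.9, 15.5 and 30.0 FPKM in the heterozygotes. Adam9 was at 38.5, 35.0 and 38.5 FPKM in the wild-type libraries and at 37.3, 27.2 and 34.6 FPKM in the heterozygotes. In each of the 3 heterozygote replicate 2 was the lowest library. Their log2 fold changes were -0.44 (SE 0.29), -0.36 (SE 0.28) and -0.18 (SE 0.14), and -0.11, -0.03 and -0.05 without it. Adam17, which releases tumour necrosis factor and ligands of the epidermal growth factor receptor, was at 9.70 ± 0.220 and 8.80 ± 1.12 FPKM. Its log2 fold change was -0.13 (95% interval -0.40 to 0.13). Adam15 shares 20.6% of its exon bases with an antisense gene that was at or below 0.532 FPKM.

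Adam8, a protease of leukocytes, was the ADAM whose genotypes did not overlap. It was at 1.31, 1.29 and 1.27 FPKM in the wild-type libraries and at 0.980, 0.985 and 1.06 FPKM in the heterozygotes. Both groups were narrow and the difference was small, resting on 79 to 111 reads per library (limma log2 fold change -0.19, SE 0.10, adjusted p = 0.818). Adam33, an ADAM of mesenchymal cells, was at 22.8, 18.2 and 16.2 FPKM in the wild-type libraries and at 31.1, 19.5 and 30.0 FPKM in the heterozygotes. Heterozygote replicate 2 lay within the wild-type range, and the log2 fold change was 0.46 (SE 0.21, adjusted p = 0.790 by limma) with it and 0.67 without it. Adam11, which lacks the zinc-binding stretch and is known as an adhesion protein of neurons, was at 7.99 ± 2.11 and 12.2 ± 3.33 FPKM (log2 fold change 0.55, SE 0.23).

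The meltrins varied between libraries of the same genotype. Adam12, a meltrin of mesenchymal cells, was at 0.730, 2.70 and 2.51 FPKM in the wild-type libraries and at 0.420, 2.10 and 0.673 FPKM in the heterozygotes. Wild-type replicate 1 and heterozygote replicates 1 and 3 were low, and the groups overlapped (log2 fold change -0.54, SE 0.40). The same 3 libraries had the lowest adipocyte markers, at 1273 to 1757 FPKM against 2169 to 4298 FPKM, and the part of fat in these values was not tested. Adam19 was at 3.44, 3.04 and 4.43 FPKM in the wild-type libraries and at 3.55, 6.66 and 3.95 FPKM in the heterozygotes, where replicate 2 was high. Adam1a and Adam5, mainly testis genes, were at 0.887 to 1.74 and 0.643 to 1.56 FPKM. Adam1a shares 63.7% of its exon bases with genes on its own strand, so its reads cannot be given to it alone. The neuronal adhesion ADAM Adam23 was at 1.16 FPKM in heterozygote replicate 2 against 0.243 to 0.459 FPKM elsewhere. Adam22 was at 0.729 to 1.19 FPKM. The other 13 untested ADAMs, most of them testis genes, were at or below 0.306 FPKM.

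In the ADAMTS family, the 3 members with higher values in every heterozygote library had unlike levels. Adamts5, an aggrecanase that cleaves aggrecan and versican (ENSMUSG00000022894, chromosome 16, 85856173 to 85901828), was at 8.41, 6.77 and 7.53 FPKM in the wild-type libraries and at 10.7, 9.45 and 11.5 FPKM in the heterozygotes. The means were 7.57 ± 0.820 and 10.6 ± 1.04 FPKM, a log2 fold change of 0.43 (SE 0.12, adjusted p = 0.597 by limma). Adamts12, which cleaves cartilage oligomeric matrix protein, was at 0.974, 1.05 and 1.55 FPKM in the wild-type libraries and at 2.73, 3.16 and 1.96 FPKM in the heterozygotes. Heterozygote replicate 2 was its highest library, and the log2 fold change of 0.72 (SE 0.17, adjusted p = 0.550 by limma) was 0.61 without it. Adamts6, a close relative of the fibrillin-binding Adamts10, was at 1.64, 1.56 and 1.03 FPKM in the wild-type libraries and at 3.23, 1.88 and 2.20 FPKM in the heterozygotes. Its groups were close at wild-type replicate 1 and heterozygote replicate 2 (limma log2 fold change 0.50, SE 0.18, adjusted p = 0.731).

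The most abundant ADAMTS gene was Adamts1, a protease of versican and aggrecan, at 122, 118 and 103 FPKM in the wild-type libraries and 123, 32.4 and 85.0 FPKM in the heterozygotes. Heterozygote replicate 2 was far below the rest, and the log2 fold change of -0.70 (SE 0.46) was -0.15 without it. Adamts1 and Adamts5 are neighbours, 53.1 kb apart on the minus strand of chromosome 16, with unlike values across the libraries. Heterozygote replicate 1 was the highest of the 6 for Adamts1 and replicate 2 the lowest, whereas for Adamts5 all heterozygote libraries were above wild type. Adamts10, which acts on fibrillin microfibrils, was at 73.2, 65.6 and 54.1 FPKM in the wild-type libraries and at 80.8, 42.9 and 78.4 FPKM in the heterozygotes. Adamts2, the main procollagen N-proteinase, was at 42.9, 50.2 and 46.2 FPKM in the wild-type libraries and at 68.6, 42.1 and 67.0 FPKM in the heterozygotes. Both genes had 2 heterozygote libraries above wild type and replicate 2 below it. Their log2 fold changes were 0.02 (SE 0.27) and 0.31 (SE 0.21), and 0.31 and 0.54 without heterozygote replicate 2.

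The other tested proteoglycanases had lower heterozygote means within overlapping groups. Adamts8 was at 14.7 ± 3.10 and 10.8 ± 3.49 FPKM, Adamts15 at 9.93 ± 0.627 and 8.61 ± 2.80 FPKM and Adamts9 at 2.36 ± 0.259 and 1.95 ± 0.483 FPKM. Their log2 fold changes were -0.44, -0.23 and -0.20, and -0.18, -0.02 and -0.31 without heterozygote replicate 2. The procollagen N-proteinase Adamts14 was at 4.69 ± 1.92 and 4.21 ± 0.902 FPKM. Of the 9 untested genes, Adamts7, Adamts4 and Adamts3 were at 0.213 to 1.22 FPKM. Adamts20, Adamts17, Adamts16, Adamts18, Adamts13 and Adamts19 were at or below 0.476 FPKM. At very low counts, Adamts16 had 1, 2 and 4 reads in wild type and 9, 15 and 14 reads in heterozygotes, and did not overlap. Adamts17 had 21, 11 and 19 against 38, 21 and 24 reads, and Adamts18 had 7, 5 and 5 against 7, 18 and 7 reads. The reads of the last 2 genes tie between genotypes, and only their FPKM, scaled by depth, do not overlap.

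ADAMTS-like proteins lack the protease domain and bind to fibrillin microfibrils and other matrix. Adamtsl1 was higher in every heterozygote library by a small step, at 2.64, 2.51 and 2.61 FPKM in the wild-type libraries and 3.20, 2.97 and 3.45 FPKM in the heterozygotes (limma log2 fold change 0.23, SE 0.09, adjusted p = 0.762). Adamtsl5, the most abundant of them, was at 43.9, 40.3 and 31.6 FPKM in the wild-type libraries and at 40.8, 23.5 and 37.9 FPKM in the heterozygotes. Adamtsl4, whose human counterpart is altered in inherited lens dislocation, was at 23.8, 21.3 and 20.99 FPKM in the wild-type libraries and at 24.2, 14.6 and 26.4 FPKM in the heterozygotes. Adamtsl3 was at 11.1, 9.33 and 8.11 FPKM in the wild-type libraries and at 10.7, 7.64 and 9.84 FPKM in the heterozygotes. In these 3 genes the groups overlapped and heterozygote replicate 2 was the lowest library. Their log2 fold changes were -0.20, -0.06 and -0.02, and 0.04, 0.19 and 0.11 without it. Adamtsl2, whose human counterpart is altered in geleophysic dysplasia, was at 6.11 ± 1.43 and 4.35 ± 1.94 FPKM.

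**Figure D4:**
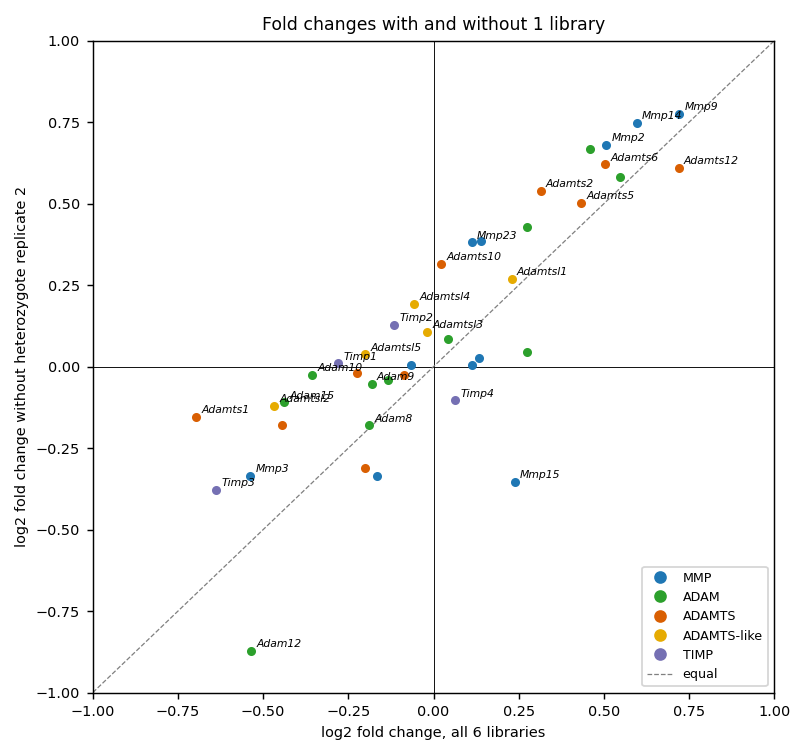
Log2 fold change (heterozygote minus wild type, on log2(FPKM + 1)) of the 41 tested members over all 6 libraries (x axis) and without heterozygote replicate 2 (y axis), with the line of equal values. Mmp9, Mmp14, Mmp2, Adamts5, Adamts6, Adamts12 and Adamtsl1 are above 0 and Timp3 and Adam8 below 0 on both axes, whereas Mmp15 and Timp4 go from above 0 to below it.

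Summed over each family, the levels of proteases and inhibitors were described without a test. The 19 MMPs summed to 269, 309 and 298 FPKM in the wild-type libraries and to 337, 261 and 405 FPKM in the heterozygotes. The 4 TIMPs summed to 526, 508 and 484 FPKM in the wild-type libraries and to 519.6, 305 and 494 FPKM in the heterozygotes. Both sums overlapped between genotypes, with heterozygote replicate 2 the lowest library. The ratio of the MMP sum to the TIMP sum was 0.511, 0.607 and 0.616 in wild type and 0.649, 0.855 and 0.820 in heterozygotes. This ratio did not overlap, although wild-type replicate 3 and heterozygote replicate 1 were close, and the means were 0.578 ± 0.0586 and 0.775 ± 0.110. The heterozygote mean was 1.34 times that of wild type, and 1.27 times without heterozygote replicate 2. In heterozygote replicate 2 the ratio was high with a low TIMP sum, and in replicate 3 with a high MMP sum.

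The members' shares of these sums were also set side by side. Shares were taken in each library and averaged over the libraries of a genotype. Mmp2 made up 31.4% of the MMP sum in wild type and 39.6% in heterozygotes, and Mmp3 made up 23.2% and 13.9%. Timp2 made up 66.1% and 72.1% of the TIMP sum, and Timp3 26.7% and 20.3%. Without Mmp2, the heterozygote MMP sum was 1.01 times that of wild type, against 1.15 times with it. With Mmp2 but without heterozygote replicate 2 the MMP sum was 1.27 times that of wild type. Without Timp2, the TIMP sum was 0.716 times that of wild type, against 0.869 times with it. With Timp2 but without heterozygote replicate 2 the TIMP sum was 1.00 times that of wild type. The sums of ADAM, ADAMTS and ADAMTS-like genes were 0.947, 0.931 and 0.922 times those of wild type, and 1.06, 1.11 and 1.06 times without heterozygote replicate 2. Adamts1 made up 42.4% of the ADAMTS sum in wild type and 30.0% in heterozygotes, and Adamts2 made up 17.4% and 24.3%.

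**Figure D5:**
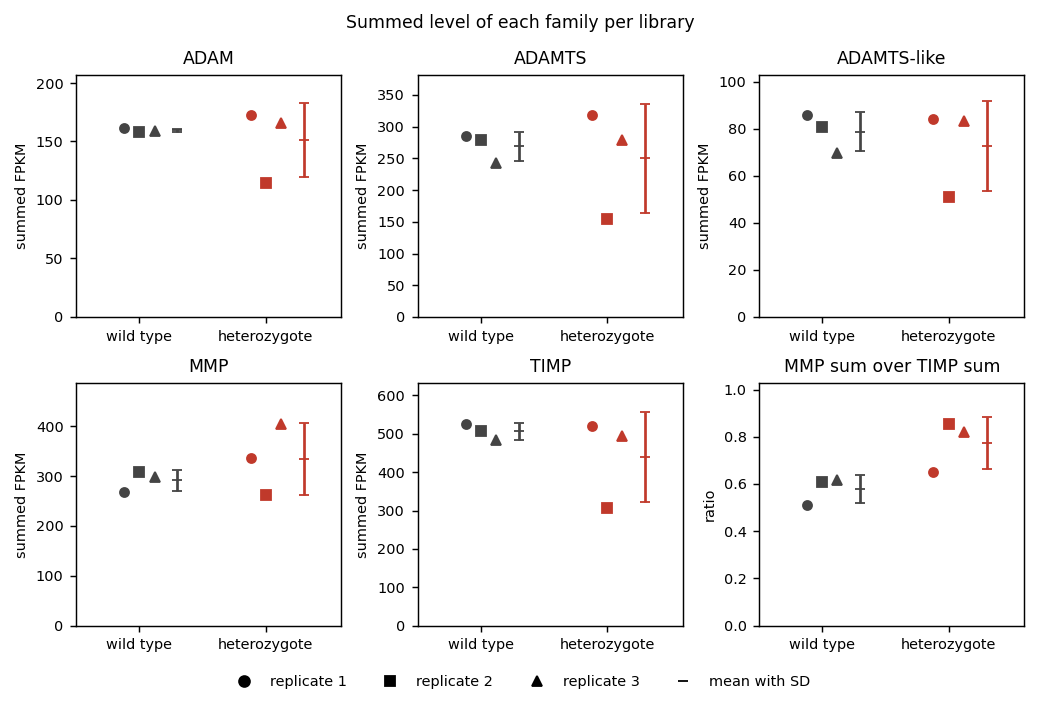
Summed FPKM of each family and the ratio of the MMP to the TIMP sum, one point per library with the mean and SD of 3, on axes that start at 0. Heterozygote replicate 2 (square) is the lowest library in all 5 sums, and the ratio is 0.511 to 0.616 in wild type and 0.649 to 0.855 in heterozygotes.

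Genes that activate or carry the proteases were counted from a list of 19, of which 16 were tested and 0 passed (limma, 2 at an unadjusted p under 0.05, against 6.50% of all genes). Of the 16, 6 log2 fold changes were above 0 and 10 below, with a median of -0.03 against 0.01 over all genes. The tetraspanin Tspan17, a partner of Adam10, was at 14.0 ± 0.545 and 19.6 ± 3.80 FPKM. Rhbdf2, which carries Adam17 to the cell surface, was at 9.88 ± 1.68 and 6.64 ± 1.11 FPKM, and Tspan14, another partner of Adam10, at 22.1 ± 2.11 and 18.6 ± 2.45 FPKM. These 3 and the propeptide-cleaving protease Furin, at 16.5 ± 0.159 and 15.0 ± 0.603 FPKM, did not overlap between genotypes (1 higher and 3 lower of the 16, against 12.9% of all genes in either direction). Furin is outside the naming rule and was named after its values were seen. Of 10 inhibitors other than TIMPs, 5 were tested and 0 passed (0 at an unadjusted p under 0.05). The proteoglycan Spock2 was at 21.4 ± 0.647 and 27.2 ± 8.41 FPKM, the SD of heterozygotes resting on replicate 2 at 36.9 FPKM. Its genotypes narrowly did not overlap (1 higher of the 5, against 7.80% of all genes). The membrane-anchored MMP inhibitor Reck was at 36.7 ± 4.38 and 30.3 ± 10.8 FPKM and the protease nexin Serpine2 at 73.0 ± 11.8 and 66.6 ± 24.1 FPKM. Their log2 fold changes were -0.33 and -0.19, and -0.02 and 0.15 without heterozygote replicate 2.

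Matrix substrates were counted from a list of 19, of which 17 were tested and 0 passed (limma, 5 at an unadjusted p under 0.05, against 6.50% of all genes). Of the 17, 10 log2 fold changes were above 0 and 7 below, with a median of 0.07, and 4 genes were higher in every heterozygote library, against 7.80% of all genes. Fibrillin-1, Fbn1, was at 23.8 ± 1.87 and 39.3 ± 5.89 FPKM (log2 fold change 0.69), Col3a1 at 302 ± 45.6 and 564 ± 137 FPKM and Col1a1 at 601 ± 103 and 1122 ± 266 FPKM (0.88 and 0.89). Of the 5 under 0.05, aggrecan, Acan, had a lower heterozygote mean, at 4.12 ± 1.61 and 1.84 ± 0.802 FPKM, and overlapped. Its log2 fold change was -0.83, and -0.63 without heterozygote replicate 2. Acan is outside the naming rule and was added after its values were seen. Elastin, Eln, a gene outside the naming rule and chosen after its values were seen, was at 622, 661 and 615 FPKM in the wild-type libraries and at 873, 408 and 914 FPKM in the heterozygotes, so that 2 heterozygote libraries were above wild type and replicate 2 below it.

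Membrane proteins that ADAMs release were counted from a list of 23, of which 19 were tested and 0 passed (limma, 2 at an unadjusted p under 0.05, against 6.50% of all genes). Of the 19, 6 log2 fold changes were above 0 and 13 below, with a median of -0.12. The growth factor Tgfa was at 3.22 ± 0.579 and 1.63 ± 0.820 FPKM and the receptor Notch1 at 13.5 ± 1.32 and 8.86 ± 3.04 FPKM, both lower in every heterozygote library, as were 5.12% of all genes. The receptor Tnfrsf1b was at 8.85 ± 1.73 and 6.76 ± 1.27 FPKM and overlapped. Endothelial markers, which were low in heterozygote replicate 2, had a median log2 fold change of -0.53 with that library and -0.03 without it. Without it the median of the released membrane proteins was -0.05, while Tgfa was at -0.43 and Notch1 at -0.38. The gene Cdh5 is in both lists. The part of endothelium in these values was not tested.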

How the data were processed

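RNA of 6 aortic libraries (3 wild type, 3 heterozygote) was grouped by the sample titles. The values were deposited as FPKM, 1 table per library, calculated by the authors. That they are FPKM was read from the values, and the counting of reads or of fragments is not given in the sources used here. TopHat2, Bowtie2 2.2.3, HISAT2 2.1.0 and GRCm38 stand in the submitters' processing notes with no roles. Of the gene identifiers, 29687 were found in GENCODE M21. Its exon lengths gave whole reads, within 0.01 reads, for 95.0% to 95.5% of genes with few reads, so depth and reads per gene were recovered. Headers inside the heterozygote tables number the libraries in another order than the titles, which were used.

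Every gene that reached 1 FPKM in 3 or more libraries was fitted with limma 3.58.1 (R 4.3.3, mean-variance trend) on log2(FPKM + 1), a scale that understates changes of low genes. P-values were two-sided and adjusted over all genes by Benjamini-Hochberg at 0.05. The procedure was run on simulated data with independent noise for each gene. Those data held no library that stands apart, so they cannot show how the fit behaves with heterozygote replicate 2. Single genes were also compared by an exact permutation test. The count test planned for raw counts was not used, since the files hold FPKM.

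The members and gene lists were chosen with earlier results of these data known. Named with every library's value were all TIMPs, members whose groups did not overlap or whose unadjusted p was under 0.05, and the 3 most abundant members of each other family. Mmp15, Adam33, Adam12 and Adam19 are outside this rule and were given with every library's value after their values were seen. Other tested members were named with group means, and each list with up to 3 genes of smallest p. Alternatives were pseudocount 0.1, other filters, 2 scalings, voom, array quality weights, an adipocyte marker covariate, a replicate block and leaving out each library. Python 3.11.15, numpy 2.4.6, pandas 2.3.3 and matplotlib 3.10.9 were used.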

Additional observations from a re-analysis of the deposited data

How the results depend on the processing

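No member passed an adjusted p under 0.05 with limma except with array quality weights, which gave heterozygote replicate 2 a weight of 0.170 and wild-type replicate 2 and heterozygote replicate 3 weights of 3.11 and 3.59. There 5 members passed, of 232 genes (1.84% of those tested): Mmp9 (adjusted p = 0.024, log2 fold change 0.86), Mmp14 (0.031, 0.88), Adamts5 (0.035, 0.59), Adam33 (0.046) and Mmp2 (0.048, 0.68). Leaving out single libraries left 0 to 1 genes past the threshold. Members at an unadjusted p under 0.05 then numbered 4 to 14, against 8 with all libraries (6.50% of all genes). They were 4 without wild-type replicate 2 or 3, and 14 without heterozygote replicate 2 (14.0% of all genes). That number was 18 with the adipocyte covariate (17.0% of all genes) and 15 with array weights. Members whose groups did not overlap numbered 10 to 20 with 1 library left out, against 9 with all (12.9% of all genes). They were 16 without wild-type replicate 1, 14 without heterozygote replicate 1 and 20 without heterozygote replicate 2 (33.1% of all genes). With fewer libraries, groups fail to overlap more readily. The share of all genes was not counted for the other settings, so these counts are no result about the members.

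The replicate block left 0 members past the threshold, with 7 at an unadjusted p under 0.05. The share of all genes was not counted for that fit either. Deviations of same-numbered libraries from their group means had correlations of 0.51, -0.09 and -0.34, and those of the other pairs ranged from -0.54 to 0.55. So few correlations cannot settle whether the numbers pair the libraries.

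Of 345 fold changes of the 23 genes named in full under 15 alternatives, 324 kept their sign and side of the threshold and 17 reversed. Reversals came for Adamts10 with TMM scaling (-0.013) and the adipocyte covariate (-0.042), and with array weights for Adamtsl4 (0.23), Adamtsl3 (0.076) and Timp2 (0.095). With 1 library left out the ranges that crossed 0 were Adamts10 -0.14 to 0.31, Adamtsl5 -0.35 to 0.037, Adamtsl4 -0.21 to 0.19, Adamtsl3 -0.12 to 0.11, Mmp23 -0.070 to 0.38, Timp2 -0.24 to 0.13, Timp1 -0.45 to 0.011 and Timp4 -0.10 to 0.23. The causes were not tested. Depth limits Adam8 and Mmp27, at 79 to 111 and 22 to 57 reads per library.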
